A study of Gallus gallus with 7 samples.

Results

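Segments on unplaced scaffolds make up 2571 of the 53008 short regions in the authors' deposited segment table, or 4.85%. They were chosen by name alone, as every segment whose sequence name in the chicken build galGal5 starts with AADN (1953 segments on 664 scaffolds) or KQ (618 segments on 81 scaffolds). The whole table covers 779 chromosomes and scaffolds, of which 745 are unplaced. Their counterpart here is the 50424 segments on the 32 assembled chromosomes of the table, among them 7282 segments on the small chromosomes numbered 21 to 33. The remaining 13 segments, on the mitochondrial genome and on linkage group LGE64, belong to neither set.

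The segments come from reduced representation bisulfite sequencing (RRBS), which reads cytosine methylation in CpG-rich fragments, of chick microglia, the resident immune cells of the brain, which were isolated from anterior hypothalamus by cell sorting. Conditioned chicks spent 24 hours at 39 °C on day 3 after hatch, and non-conditioned chicks were not heat-conditioned. DNA of both groups was taken on day 10, before the LPS challenge used elsewhere in the study, and per the labels each library is a pool of 10 to 12 chicks, so differences between single birds are not seen. There are 3 conditioned libraries, numbered 1-2, 3 and 4, and 4 non-conditioned libraries, numbered 1 to 4. How the conditioned library numbered 1-2 was made is not stated. The question behind the comparison is whether heat early in life leaves a difference in microglial DNA methylation a week later. Methylation values hold no expression markers by which to check the microglial label, and no gene annotation of this build was used, so the scaffolds are described without genes.

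An unplaced scaffold is a stretch of assembled sequence that could not be assigned to a chromosome. In birds such stretches hold much GC-rich and repetitive DNA, including parts of the smallest microchromosomes, which are hard to assemble. In vertebrate genomes most CpG sites are methylated, CpG islands at gene starts are mostly free of methylation, and repeats are typically methylated, so an enriched RRBS fragment set holds both kinds of sequence.

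Group means were the only values available for the unplaced segments, since the site table covers none of them. No spread and no test over libraries is therefore given for unplaced segments. All differences below are conditioned minus non-conditioned, in percentage points. Library values could be computed for 11570 segments, all on assembled chromosomes. There the mean methylation over segments was 13.2%, 9.34% and 10.3% in conditioned libraries 1-2, 3 and 4, against 12.3%, 12.7%, 13.1% and 13.1% in non-conditioned libraries 1 to 4. By these means conditioned library 1-2 lay just above the non-conditioned range, and conditioned libraries 3 and 4 lay below it. The group means were 10.96% ± 2.01 (SD, n = 3) in conditioned and 12.8% ± 0.406 (SD, n = 4) in non-conditioned microglia, a difference of -1.85 points (two-sided exact permutation p = 0.171 over 35 arrangements, where the smallest possible p is 0.0286). This difference of means was -2.97 points without conditioned library 1-2 and -1.04 points without conditioned library 3. By the median over segments, the libraries had 4.45%, 1.91% and 2.37% in the conditioned group, against 4.94%, 5.03%, 5.39% and 5.34% in the non-conditioned group, so library 1-2 too lay below every non-conditioned library (difference -2.27 points, exact permutation p = 0.0286). The median difference of single segments was -1.88 points with all libraries, -2.46 points without conditioned library 1-2 and -1.48 points without conditioned library 3. How far the same libraries set the values on unplaced scaffolds was not tested. The number of calls behind each value is unknown.

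Unplaced segments were more methylated than those on assembled chromosomes. Their median was 10.4% in conditioned and 12.99% in non-conditioned microglia, against 3.17% and 5.66% on assembled chromosomes. The level of a segment, taken as the average of both group means, had a median of 11.6% on unplaced scaffolds, 4.52% on all assembled chromosomes and 7.32% on chromosomes 21 to 33. In the middle 80% of unplaced segments it ran from 2.50% to 79.0%. Of the unplaced segments, 1213 (47.2%) lay under 10%, 1118 (43.5%) between 10% and 80%, and 240 (9.33%) at 80% or more. On assembled chromosomes these shares were 72.4%, 25.9% and 1.67%, and on chromosomes 21 to 33 they were 57.3%, 40.1% and 2.69%. Segments share libraries and lie near each other, so they are not replicates, and these contrasts between parts of the genome are descriptions without a test.

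**Figure D1:**
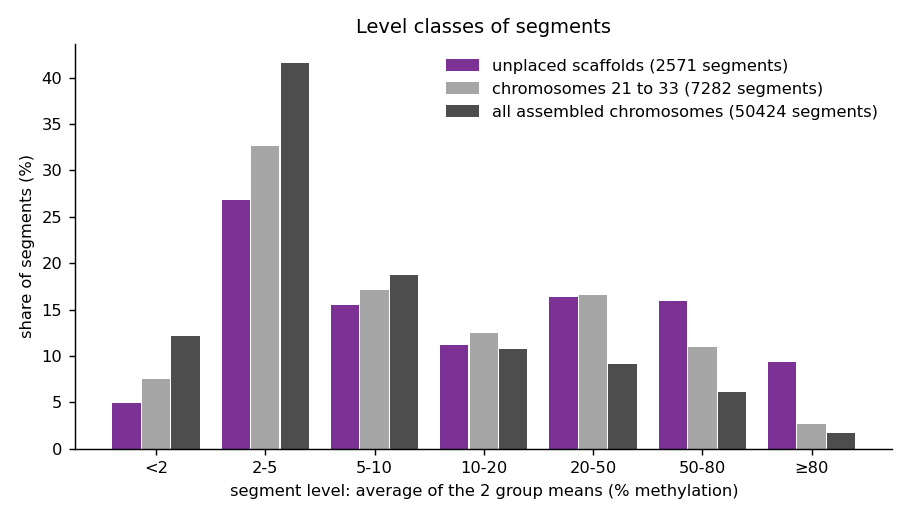
Share of segments (y axis, %) in 7 classes of level (x axis, % methylation, average of both group means) for unplaced scaffolds, chromosomes 21 to 33 and all assembled chromosomes. The class of 80% or more holds 9.33% of unplaced segments and 1.67% of assembled ones, while 2% to 5% is the fullest class of each set.

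The fullest class was the same in both sets, but it held a smaller share of the unplaced one. The class of 2% to 5% was the fullest on unplaced scaffolds, with 26.8% of segments, and on assembled chromosomes, with 41.5%. Levels of 50% or more were found in 25.3% of unplaced and 7.77% of assembled segments. No single assembled chromosome had a larger share of such segments than the unplaced set. Chromosome 16, with 37 segments, came nearest at 24.3%, followed by chromosome 25 at 16.8% of 578 segments. Chromosome Z was lowest at 3.77% of 2279. Scaffolds with AADN names and those with KQ names had median levels of 11.5% and 12.2%, and 25.7% and 24.1% of their segments lay at 50% or more.

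Unplaced segments held at least 10 cytosine positions each, as all segments in the table did, with a median of 10 positions over 55 bp. Assembled segments had a median of 11 positions over 50 bp. Both strands of a CpG count as positions. The density of positions was somewhat lower on unplaced scaffolds, with a median of 22.2 per 100 bp against 25.6 on assembled chromosomes. Methylation was lower in denser segments of both sets, and higher on unplaced scaffolds at every density. Among segments with 40 or more positions per 100 bp, 67.5% of 351 unplaced and 90.2% of 8715 assembled segments lay under 10%. With fewer than 10 positions per 100 bp, the shares were 29.6% of 416 and 41.6% of 5820. Highly methylated dense segments were also more frequent there: at 40 or more positions per 100 bp, 5.70% of unplaced and 0.470% of assembled segments reached 80%.

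Most unplaced scaffolds carried a single segment. This was so for 387 of the 745 scaffolds (51.9%), while 236 carried 2 to 4, 122 carried 5 or more and 14 carried 20 or more. Lone segments were more often methylated than those in company: their median level was 30.2%, and 146 of 387 lay at 50% or more (37.7%), against 19.2% of the 663 segments on scaffolds with 20 or more. On the scaffolds with 2 to 4, 5 to 9, 10 to 19 and 20 or more segments, the median level was 10.4%, 9.91%, 10.5% and 9.59%. The share at 80% or more was 13.9%, 9.54%, 8.79% and 3.32% in the same order, and 12.7% for lone segments.

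The 10 scaffolds with the most segments held 582 of them, 22.6% of the unplaced set. AADN04000623.1 and KQ759405.1 had 117 each, KQ759550.1 had 99 and AADN04000612.1 had 69, followed by KQ759484.1 with 46, KQ759368.1 with 38, AADN04000745.1 with 27, KQ759534.1 with 24, AADN04003971.1 with 23 and AADN04000732.1 with 22. Segments were packed most closely on KQ759550.1, at 23.3 per 10 kb over a span of 42.5 kb, and most loosely on AADN04000732.1, at 3.72 per 10 kb over 59.1 kb. Median levels differed widely between these scaffolds. AADN04000732.1 was the least methylated, with medians of 2.83% in conditioned and 5.47% in non-conditioned microglia and 18 of 22 segments under 10%. KQ759534.1 was the most methylated, with 62.2% and 63.1% and 13 of 24 segments at 50% or more. AADN04000745.1 lay between, with 40.6% and 33.2%. Even so, 16 of its 27 segments were lower in conditioned microglia, and the median difference of its segments was -1.60 points. The median of each group was taken separately, so the gap between group medians of a scaffold is not the median difference of its segments. On the 4 with the most segments, the conditioned and non-conditioned medians were 9.32% and 12.4% on AADN04000623.1, 7.93% and 11.3% on KQ759405.1, 6.38% and 10.2% on KQ759550.1, and 6.45% and 8.63% on AADN04000612.1.

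Each of these scaffolds alternated between nearly unmethylated and methylated stretches. On AADN04000623.1 the lowest segment, at 112619 to 112772, had 0.370% in conditioned and 1.53% in non-conditioned microglia, and the highest, at 76172 to 76206, had 85.9% and 90.1%. The extremes of KQ759405.1 were 0.593% and 1.30% at 91719 to 91740, and 87.2% and 85.6% at 19822 to 19883. KQ759550.1 ran from 0.476% and 1.35% at 16993 to 17036 up to 77.4% and 82.0% at 6422 to 6440. AADN04000612.1 ran from 0.677% and 1.84% at 77831 to 77848 up to 96.7% and 95.9% at 9540 to 9584, the highest level on the 5 scaffolds with the most segments. KQ759484.1 ran from 0.953% and 1.70% at 84206 to 84328 up to 86.6% and 92.7% at 76254 to 76364. These places were chosen by the average of both groups.

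**Figure D2:**
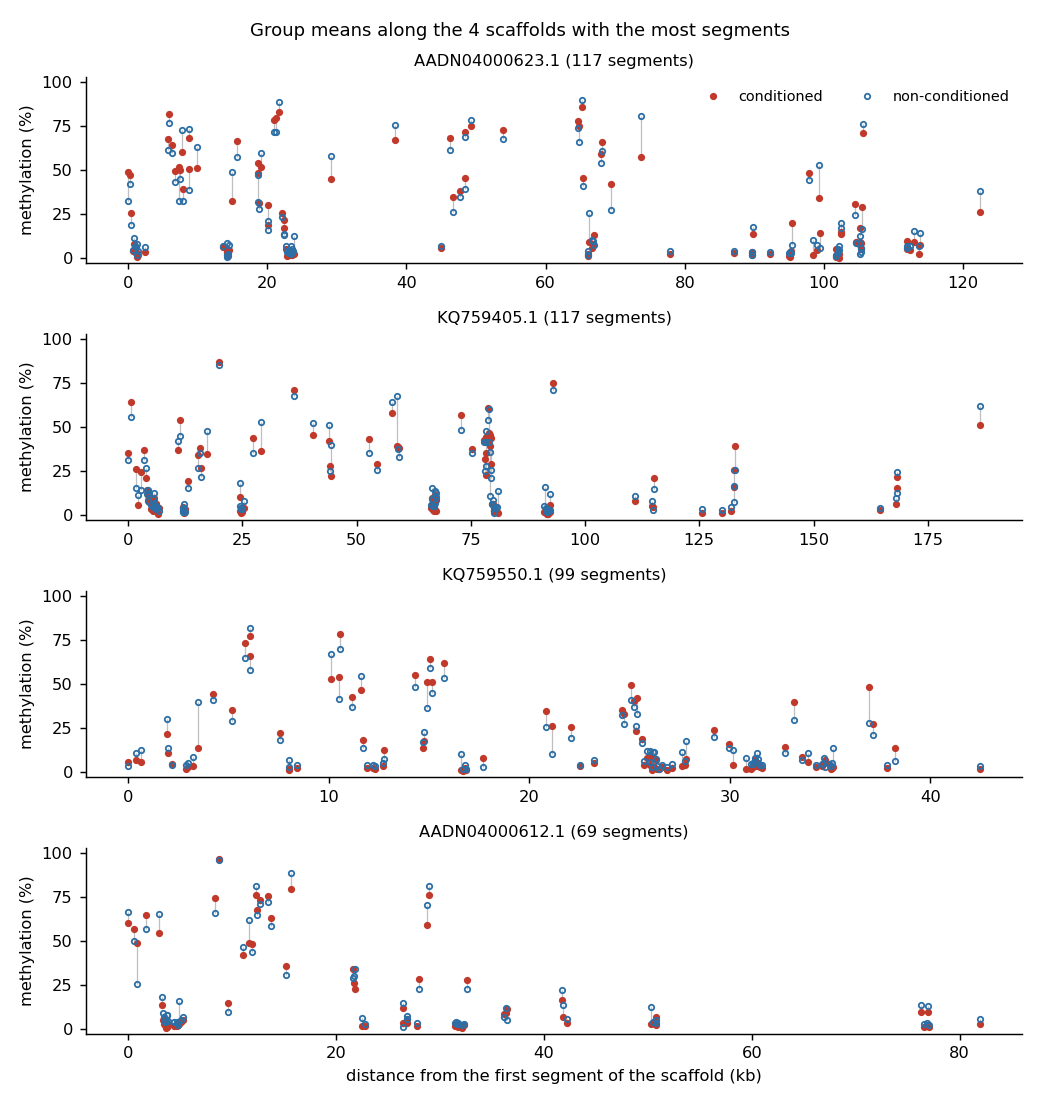
Deposited group means (y axis, % methylation) of every segment on the 4 scaffolds with the most segments, by distance from the first segment of the scaffold (x axis, kb). Filled points are conditioned, open points non-conditioned, and a line joins the 2 means of a segment. Clusters of segments near 0 alternate with segments of 50% or more on each scaffold.

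Long runs of nearly unmethylated segments were part of this pattern. The longest run of consecutive segments under 10% had 20 segments, with 308 positions, at KQ759405.1, 79475 to 92465, and medians of 1.61% in conditioned and 3.80% in non-conditioned microglia. It was lower in conditioned microglia in 19 of the 20. On KQ759550.1 a run of 15 segments at 26043 to 28097 had 3.41% and 5.83%. AADN04000612.1 had a run of 14 segments at 4145 to 6063 with 2.11% and 4.74%, all 14 lower in conditioned microglia. AADN04000732.1 also had a run of 14, spread over 24.9 kb from 30965 to 55837, with 2.43% and 4.91%, and again all 14 were lower. On AADN04000623.1 a run of 11 segments at 33572 to 34704 had 2.15% and 3.87%. Most low segments were lower in conditioned microglia anywhere on unplaced scaffolds: 88.2% under 2%, 86.3% at 2% to 5% and 81.9% at 5% to 10%. The counts in these runs are to be read beside those shares. These runs are strings of low segments that can have long gaps without segments between them. In the run of 20 on KQ759405.1, no segment lay between 80.9 and 91.1 kb from the first segment of the scaffold. The methylation of DNA in such gaps is unknown.

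Directly before the run of 20 on KQ759405.1 lay 15 segments of 10% or more, at 67394 to 79474, with medians of 42.4% in conditioned and 35.7% in non-conditioned microglia. Of these, 12 were higher in conditioned microglia and 3 lower. Most of the 15 had levels of 20% to 50%, where 65.5% of all unplaced segments were higher. The 4 nearest the run were all higher: 45.4% against 35.7% at 79109 to 79145, 38.9% against 10.4% at 79229 to 79295, 43.8% against 25.5% at 79353 to 79421, and 29.0% against 20.9% at 79434 to 79474. The next segment, at 79475 to 79890, had 5.85% and 6.02% over 71 positions, more positions than any other unplaced segment. The medians of both groups were lower within the run, which was defined by levels under 10%. The first segment after the run had 75.3% in conditioned and 71.3% in non-conditioned microglia. Within the same stretch, 2 segments went the other way by more than 15 points, at 78247 to 78290 with 22.7% and 47.99% and at 79040 to 79073 with 42.9% and 60.5%. No deposited q-value in the 15 segments was under 1.

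Some scaffolds held one kind of segment only. Of the 122 scaffolds with 5 or more segments, 65 had at least 1 segment under 10% and at least 1 of 50% or more, 13 had all segments under 10%, and 5 had all at 50% or more. The most uniformly methylated was AADN04016642.1, where 7 segments between 1683 and 3829 had levels of 93.0% to 95.97%. Their medians were 95.8% in conditioned and 94.3% in non-conditioned microglia, and 6 of the 7 were higher in conditioned. AADN04002160.1 had 7 segments with medians of 92.5% and 91.5%, AADN04001796.1 had 5 with 88.9% and 92.1%, and KQ759533.1 had 6 with 82.2% and 86.9%.

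AADN04000677.1 had the most segments of this kind, 16 within 7.11 kb, with medians of 86.9% in conditioned and 84.0% in non-conditioned microglia. Its lowest segment, at 20862 to 21070, had 65.4% and 54.0% over 33 positions. Of its 16 segments, 10 were higher in conditioned microglia and 6 lower, with differences from -8.59 to 11.4 points. From 20415 to 21830, all 7 segments were higher in conditioned microglia, by 2.88 to 11.4 points. Its first 2 had differences of -1.99 and -1.08 points, and lower segments also followed that stretch, among them -8.59 points at 22990 to 23064. Over all unplaced segments, 57.8% were higher at levels of 50% to 80% and 46.25% at 80% or more. Dense segments were methylated on AADN04000677.1 too: the segment at 20415 to 20441 had 10 positions in 27 bp and 86.4% and 81.5%. The 13 unmethylated scaffolds had between 5 and 9 segments. AADN04003625.1, with 9, had medians of 2.06% and 4.70% and every segment lower in conditioned microglia, and AADN04011411.1, also with 9, had 2.14% and 3.19%, with 7 of 9 lower.

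Neighbouring segments resembled each other over short distances. In 754 pairs of neighbours less than 100 bp apart, the levels differed by a median of 3.10 points, and by 50 points or more in 0.133% of pairs. The median was 6.11 points at 100 to 500 bp, 12.0 points at 500 to 2000 bp and 21.5 points at 2000 bp or more, where 25.3% of 364 pairs differed by 50 points or more. On assembled chromosomes the corresponding medians were 2.06, 2.97, 8.92 and 7.80 points. On chromosomes 21 to 33 they were 2.66, 4.29, 16.0 and 17.8 points, nearer to the unplaced set at 2000 bp or more. The direction of the group difference was shared by 72.4% of unplaced neighbours less than 100 bp apart and by 51.9% of those 2000 bp or more apart. On assembled chromosomes the shares were 75.9% and 64.0%, and on chromosomes 21 to 33 they were 75.3% and 58.5%. These shares depend on how many segments are lower in each set, which differed between the sets.

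Conditioned microglia had lower methylation in most unplaced segments, by small amounts. Of the 2571, 1670 (65.0%) were lower and 901 higher, with a median difference of -1.69 points. The middle 80% of differences ran from -8.14 to 7.93 points. On assembled chromosomes 78.2% were lower, with a median of -1.88 points, and on chromosomes 21 to 33 it was 71.7%, with -1.91 points. The medians of unplaced and assembled segments differed by 0.19 points, and by -0.14 points in segments with at least 15 positions, so the order of these medians turned with that choice. The mean difference was -0.73 points on unplaced scaffolds and -1.84 points on assembled chromosomes.

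The direction differed between classes of level. Level and difference are computed from the same group means, so they are not independent. Differences were not classed by the non-conditioned mean alone. Under 10%, unplaced and assembled segments were alike: at 2% to 5%, 594 of 688 unplaced segments were lower (86.3%, median -1.89 points), as were 88.5% of assembled ones (median -1.87 points). Under 2% the median was -1.18 points on unplaced scaffolds, with 88.2% lower, and -1.10 points on assembled chromosomes, with 85.7% lower. At 5% to 10% the medians were -3.02 and -3.46 points. Between 20% and 50% the direction was the other way in both sets: 275 of 420 unplaced segments (65.5%) were higher in conditioned microglia, with a median of 4.71 points, as were 59.2% of assembled ones, with 4.21 points.

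The sets parted at higher levels. At 50% to 80%, 237 of 410 unplaced segments (57.8%) were higher in conditioned microglia, against 46.6% of 3076 assembled ones, and the medians were 3.77 and -2.86 points. Differences near 0 were few in that class, where the median size was 7.03 points on unplaced scaffolds and 7.36 points on assembled chromosomes, so a median between the lower and the higher segments takes its sign from which of them are more numerous. The means there were 1.10 and -1.15 points. At 80% or more, 129 of 240 unplaced segments (53.8%) and 67.7% of 841 assembled ones were lower, with medians of -0.96 and -3.25 points. When the assembled classes were weighted by the level classes of the unplaced set, 70.1% of assembled segments were lower, between the 65.0% of unplaced and the 78.2% of assembled segments unweighted. No library values were available for unplaced scaffolds, so whether their differences exceed the spread between libraries was not tested.

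**Figure D3:**
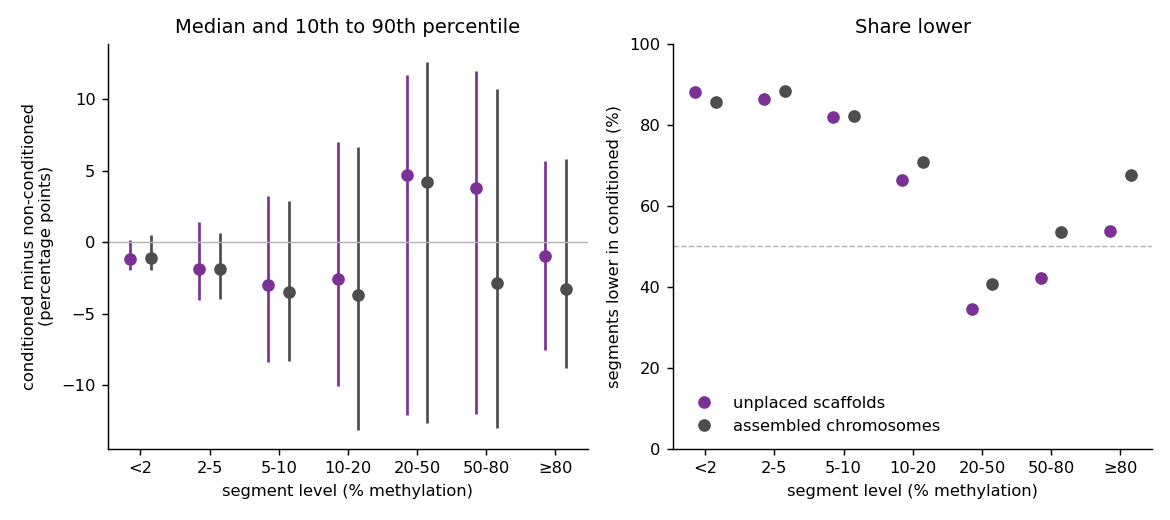
Left, conditioned minus non-conditioned methylation (y axis, percentage points) by class of level (x axis, % methylation), with points for medians and lines from the 10th to the 90th percentile of segments. Right, the share of segments lower in conditioned microglia (y axis, %), with a dashed line at 50%. At 50% to 80% the median is 3.77 points on unplaced scaffolds and -2.86 points on assembled chromosomes.

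Values of the libraries behind these classes were available for only 11570 of the assembled segments, and there the direction at intermediate levels rested on single libraries. At 20% to 50% they were 41.1%, 29.3% and 32.8% in conditioned libraries 1-2, 3 and 4, against 31.2%, 32.7%, 33.3% and 33.6% in non-conditioned libraries 1 to 4. Conditioned library 1-2 was above all others in that class, library 3 below all, and library 4 inside the non-conditioned range. The median difference of these 983 segments was 4.66 points with all libraries and -0.98 points without conditioned library 1-2, so the direction turned. Without conditioned library 3 it was 6.91 points. At 50% to 80% the libraries had 68.4%, 59.6% and 63.6% in the conditioned group, against 62.4%, 65.5%, 65.3% and 65.7% in the non-conditioned group. The median of these 626 segments was -1.84 points with all libraries and 2.68 points without conditioned library 3. Whether the positive medians on unplaced scaffolds at 20% to 80% rest on 1 library in the same way was not tested. At 2% to 5% the libraries had 3.62%, 1.52% and 1.83% in the conditioned group, against 3.99% to 4.28% in the non-conditioned group, so the groups did not overlap. Nor did they overlap at 80% or more, with 85.0%, 83.9% and 85.6% in the conditioned group, against 86.9% to 88.5% in the non-conditioned group, or in the classes under 2% and 5% to 10%. The segments were reported from the same libraries, so a difference between the groups in them is no independent evidence. Over the 7 classes the exact permutation p ran from 0.0286, the smallest possible, to 0.743 (Benjamini-Hochberg adjusted 0.05 to 0.743). On the mitochondrial genome, which belongs to neither set, 5 of 5 segments were lower in conditioned microglia, with medians of 7.86% and 11.3%.

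Taken one at a time, most scaffolds had a median difference toward lower methylation in conditioned microglia. In 101 of the 122 scaffolds with 5 or more segments the median difference was below 0, and in 21 it was above. Of those 21, 20 had a median level of 10% or more, out of 64 such scaffolds, and 1 had a lower one, out of 58. Among 27 scaffolds with a median level of 20% to 50%, 19 had a median difference below 0 and 8 above. Among 10 at 50% to 80%, 7 were below 0 and 3 above. A scaffold with such a median level can still hold many low segments. AADN04000745.1, with a median level of 37.1%, had 9 of 27 segments under 10% and 11 at 50% or more. These counts therefore cannot be set against the positive median of single segments at 20% to 80%. Scaffold medians ran from -8.94 points on AADN04006627.1 to 7.83 points on AADN04012161.1. On AADN04006627.1, 10 of 13 segments were lower in conditioned microglia, and 7 neighbours from 4857 to 6612 were all lower, the largest difference being -17.0 points at 6376 to 6402. Among them, the segment at 5153 to 5294 had 31.6% and 44.3% over 21 positions. On AADN04012161.1, 7 of 8 segments were higher, among them 61.7% against 46.9% at 3550 to 3845 and 66.7% against 39.7% at 4438 to 4756, while 1968 to 2010 was lower with 38.5% against 58.5%. Levels on this scaffold ran from 25.1% to 64.8%. Of all unplaced segments, 65.5% were higher at 20% to 50% and 57.8% at 50% to 80%.

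**Figure D4:**
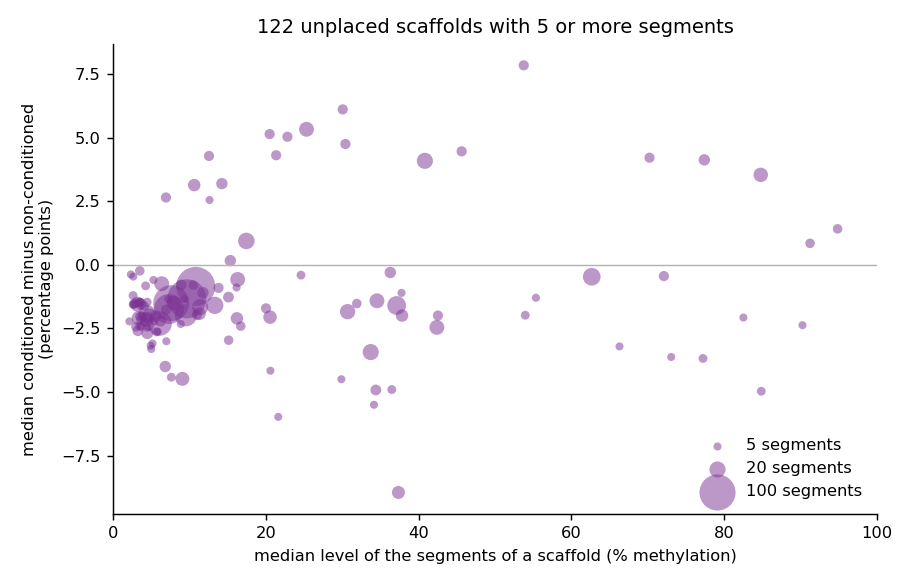
Each point is 1 of the 122 unplaced scaffolds with 5 or more segments, by the median level of its segments (x axis, % methylation) and their median conditioned minus non-conditioned difference (y axis, percentage points), with the area in proportion to the number of segments. Of the 21 scaffolds above 0, 20 have a median level of 10% or more.

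On 17 of the 122 scaffolds every segment was lower in conditioned microglia, and on 1 every segment was higher. Of all unplaced segments 65.0% were lower, and 81.9% to 88.2% in the classes of level under 10%. The counts of such scaffolds are to be read beside those shares. The 17 held 111 segments, at most 12 each, and 12 of them had a median level under 10%. KQ759539.1, with 12 segments, was the one with the most. Its group medians were 10.5% in conditioned and 21.8% in non-conditioned microglia, but the median difference of its segments was only -2.10 points. It had 6 segments under 10% and 5 at 80% or more, and its group medians lay between these. KQ759533.1 was lower in all 6 of its highly methylated segments, with differences from -6.72 to -1.51 points. The scaffold with every segment higher was AADN04016940.1, where 10 segments had medians of 79.97% in conditioned and 74.5% in non-conditioned microglia, and differences of 0.853 to 8.99 points. It too went from unmethylated to methylated along its length, with 4.41% and 3.55% at 282 to 331, 42.5% and 35.2% at 716 to 759, and 90.4% and 85.4% at 899 to 923. Scaffolds with all segments on one side were picked after their values were seen.

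In the authors' deposited table, 15 unplaced segments on 14 scaffolds had a q-value under 0.05. Of the 2571 unplaced segments, 14 passed with lower methylation in conditioned microglia (0.545%) and 1 with higher (0.0389%). Over all 53008 segments the shares were 0.621% lower and 0.0623% higher, so the unplaced set was near the background. Where the deposited q-value was under 1, it was 425000 to 428926 times the deposited Kolmogorov-Smirnov p-value. This factor exceeds the 53008 segments, and how many tests the authors adjusted for is not stated. An adjustment over the 53008 segments alone may therefore be too lenient. When the deposited p-values of all 53008 segments were instead adjusted by the Benjamini-Hochberg method, 27.3% of unplaced segments were below 0.05 and lower, and 8.75% below 0.05 and higher, by the Mann-Whitney p-value. The shares over all segments were 35.8% and 6.09%. By the Kolmogorov-Smirnov p-value they were 19.8% and 4.98% on unplaced scaffolds, against 26.3% and 3.46% over all segments. These p-values come from the authors' tests, whose settings are not stated and which can be as small as they are only if positions, not libraries, were the observations.

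**Figure D5:**
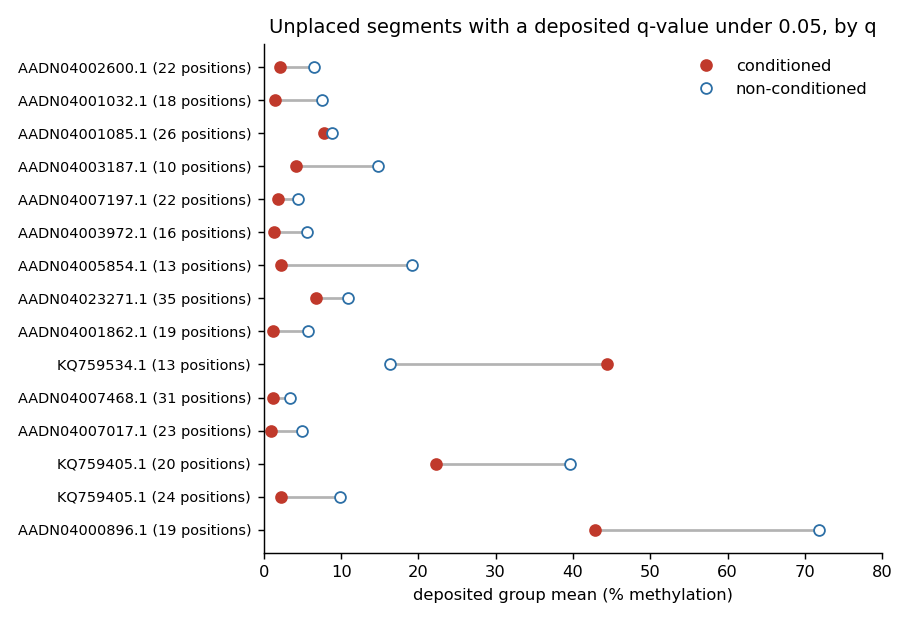
Deposited mean methylation (x axis, %) of the 15 unplaced segments with a q-value under 0.05, from the smallest q at the top, with scaffold names and position counts on the y axis. Filled points are conditioned and open points non-conditioned, and 14 of the 15 are lower in conditioned microglia.

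Most of the 15 were nearly unmethylated segments with a small difference, and 9 had a non-conditioned mean under 10%. They had 10 to 35 positions, with a median of 20, more than the median of 10 over unplaced segments. The smallest q-value in the authors' deposited table for this set, 5.17e-11, belonged to AADN04002600.1, 14891 to 14944, with 2.09% in conditioned and 6.53% in non-conditioned microglia over 22 positions. Its neighbour 20 bp away was higher in conditioned microglia, with 3.33% and 1.75%. At AADN04001032.1, 12391 to 12450, the means were 1.39% and 7.58% over 18 positions (deposited q = 0.000222), and both neighbours were also lower, with differences of -2.06 and -1.86 points. At AADN04001085.1, 14592 to 14656, the means differed by only 1.05 points, 7.76% and 8.81% over 26 positions, although the deposited q was 0.000443. The segments at AADN04007197.1 (2817 to 2902), AADN04003972.1 (7285 to 7319), AADN04001862.1 (8595 to 8645), AADN04007468.1 (7928 to 8022) and AADN04007017.1 (2594 to 2650) had conditioned means of 0.882% to 1.81% and non-conditioned means of 3.42% to 5.65%.

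Larger differences were found in 5 of the 15. AADN04003187.1, 17227 to 17278, had 4.13% in conditioned and 14.7% in non-conditioned microglia over 10 positions, and AADN04005854.1, 172 to 224, had 2.19% and 19.1% over 13. Both are the only segments of their scaffolds. KQ759405.1, 44396 to 44478, had 22.3% and 39.6% over 20 positions, with higher values in conditioned microglia in the segments 166 bp before and 8315 bp after it. AADN04000896.1, 36361 to 36525, had 42.9% and 71.8% over 19 positions (deposited q = 0.0419), and here too both neighbours, 70 and 80 bp away, were higher, by 4.51 and 5.78 points. The single higher segment, KQ759534.1 at 57712 to 57781, had 44.4% and 16.3% over 13 positions (deposited q = 0.0137). The next segment on that scaffold, 652 bp on, had 52.5% and 45.1%. The other 2 of the 15 were KQ759405.1, 67300 to 67359, with 2.24% and 9.90%, and AADN04023271.1, 14 to 124, with 6.81% and 10.9% over 35 positions.

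Differences of 10 points or more were about as frequent in both directions on unplaced scaffolds. They were lower in conditioned microglia in 174 segments (6.77%) and higher in 151 (5.87%), against 5.53% and 3.07% over all 53008 segments. On chromosomes 21 to 33 the shares were 7.91% and 4.90%. Of 20 points or more, 20 were lower (0.778%) and 22 higher (0.856%), against 0.721% and 0.387% over all segments. Of the 42 segments that differed by 20 points or more, 39 had a level between 20% and 80%, 27 had the minimum of 10 positions, and 2 had a deposited q-value under 0.05.

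The largest difference was at AADN04005898.1, 9156 to 9200, the only segment of its scaffold, with 78.3% in conditioned and 25.0% in non-conditioned microglia over 10 positions (deposited q = 0.0832). AADN04001085.1, 8533 to 8565, followed with 50% and 5.83% over 10 positions, although the nearest segment, 1106 bp before it, went the other way with 83.3% and 100%. AADN04001700.1, 1976 to 2106, had 66.5% and 36.5%, AADN04000990.1, 25783 to 25841, had 67.2% and 41.7% (deposited q = 0.0768), and AADN04009451.1, 2372 to 2453, had 49.3% and 24.0%. The other 3 of the 8 largest in this direction, on KQ759405.1, KQ759534.1 and AADN04012161.1, are given above.

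Toward lower methylation the largest was AADN04002520.1, 17859 to 17927, with 34.2% in conditioned and 67.8% in non-conditioned microglia over 14 positions. KQ759567.1, 6088 to 6139, had 40.4% and 71.2%, and AADN04005821.1, 12728 to 12762, had 17.6% and 48.2%. The segment on AADN04005821.1 lay 19 and 26 bp from neighbours that were higher in conditioned microglia by 6.54 and 18.8 points, so opposite directions met within a short stretch. AADN04008777.1, 2537 to 2578, had 2.74% in conditioned and 32.1% in non-conditioned microglia. KQ759405.1, 58907 to 58947, had 39.3% and 67.8%, AADN04022045.1, 1787 to 1866, had 32.7% and 59.8%, and KQ759550.1, 3703 to 3959, had 13.7% and 39.4%. None of these had a deposited q-value under 1, whereas AADN04000896.1, also among the 8, passed.

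Segments with the most positions were nearly unmethylated. After the one with 71 on KQ759405.1 came KQ759546.1, 6707 to 6856, with 47 positions and 4.29% in conditioned and 6.58% in non-conditioned microglia. AADN04007017.1, 1738 to 1941, had 46 positions and 1.17% and 3.00%, and AADN04007352.1, 8142 to 8199, had 36 and 4.65% and 7.04%. The exception was AADN04019628.1, 1869 to 1972, with 35 positions and 17.7% and 8.44%, higher in conditioned microglia by 9.24 points with a deposited q of 1. AADN04023271.1, 14 to 124, given above, also had 35 positions and went the other way, with 6.81% and 10.9%. The longest segments were more varied: AADN04015452.1, 237 to 999, spanned 763 bp with 10 positions and 15.9% and 11.9%, KQ759533.1, 27095 to 27727, had 71.5% and 76.9%, AADN04012391.1, 70 to 691, had 28.4% and 21.3%, AADN04000623.1, 25481 to 26059, had 32.4% and 48.9%, and AADN04001474.1, 11835 to 12412, had 2.99% and 4.92%.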

How the data were processed

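RRBS libraries were analysed from the deposited tables. Per the submitters' processing notes the build was galGal5, and the tools included HOMER, Bowtie, Bismark 0.22.3 and Trimmomatic. In the deposited site table the values are percent methylation for each cytosine in each library, without scaling and without read depth, for part of the assembled chromosomes. Per the file headers, the deposited segment table gives percent methylation per group, p-values and q-values, the count of CpG positions, and a difference score, which is non-conditioned minus conditioned and was turned round here. How the authors delimited segments is not given in the sources used here. Segments recomputed from the site table matched both group means within 0.01 points in 11570 of 11570, with starts counted from 0. Printed coordinates count from 1. An exact permutation test over libraries compared the groups, and Benjamini-Hochberg adjustment ran over all 53008 segments. The functions were tested on simulated data. Python 3.11.15, numpy 2.4.6, pandas 2.3.3, scipy 1.17.1 and matplotlib 3.10.9 were used.

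Named segments are those with a deposited q under 0.05, the 8 largest differences in each direction, the 5 with the most positions and the 5 longest. Named scaffolds are the 10 with the most segments, with the lowest and highest segment of the first 5. Other scaffolds, runs and stretches were picked after their values were seen. The members and these rules were chosen with earlier results of these data known. No sequence is shown, since no genome of this build was used.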

Additional observations from a re-analysis of the deposited data

Results flagged for a closer look

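In the non-conditioned group, 1 library stood apart in 1 of 8 sets of library means examined, where chance flags about 1 in 20. Over the 626 assembled segments with library values at 50% to 80%, non-conditioned library 1 had 62.4%, against 65.3% to 65.7% in the other 3. Its gap was 0.888 of the range. The conditioned libraries had 68.4%, 59.6% and 63.6% there. This is the class in which unplaced and assembled segments had medians of opposite sign, where all 3076 assembled segments had -2.86 points. In the 626 assembled segments with library values, the median difference was -1.76 points without non-conditioned library 1, against -1.84 points with all libraries. For unplaced segments the part of this library was not tested.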

How the results depend on the processing

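The median difference of unplaced segments stayed between -2.14 and -1.66 points under 6 choices of segments, but its size was smaller as a mean over segments (-0.73 points) or as a mean weighted by positions (-0.81 points). The share lower was 75.3% in segments with at least 15 positions. The gap between unplaced and assembled medians was -0.14 points in segments with at least 15 positions, the opposite sign. The gap between means was 1.11 points, and 0.89 points when the assembled class means were weighted by the level classes of the unplaced set. The number of passing unplaced segments was 8 at a deposited q under 0.01. It was 928 with the Benjamini-Hochberg method on the Mann-Whitney p-values and 638 on the Kolmogorov-Smirnov p-values, so it depends on the adjustment. The Benjamini-Hochberg counts cover only the 53008 segments and may be too lenient. The share under 10% was 43.4% by the non-conditioned mean, 49.5% by the conditioned mean and 42.1% with 1 segment per scaffold, which also gave 12.2% at 80% or more. On assembled segments, the difference between library means lay between -2.97 and -1.04 points with 1 library left out. The exact permutation p then ran from 0.0667 to 0.467, but too few arrangements remain for any p under 0.05. Without conditioned library 1-2, the exact permutation p of 0.0667 was the smallest possible. With all libraries and the median over segments in place of the mean, the difference was -2.27 points (exact permutation p = 0.0286, the smallest possible). With replicate numbers 3 and 4 as a replicate block, which leaves out conditioned library 1-2, the difference between library means was -3.29 points over 2 pairs. Its exact sign-flip p of 0.5 is the smallest possible with 2 pairs, so it cannot decide. Deviations from group means over 11570 segments had r of 0.0127 between the libraries numbered 3 and 0.0492 between those numbered 4. Conditioned library 1-2 had r of -0.0899 and 0.0569 with non-conditioned libraries 1 and 2. The largest r was 0.113, between conditioned library 3 and non-conditioned library 1. With so few libraries these correlations cannot decide whether same-numbered libraries belong together. The main test did not take the numbers as pairs. Within level classes of assembled segments, an alternative chosen after seeing the data, the median difference turned to -0.98 points without conditioned library 1-2 at 20% to 50%, and to 2.68 points without conditioned library 3 at 50% to 80%. With 1 library left out it ranged from -0.98 to 6.91 points at 20% to 50% and from -1.91 to 2.68 points at 50% to 80%. The cause of these reversals was not tested. Leaving out a library could not be done for unplaced segments, for which no library values were available.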
